A study of Mus musculus with 6 samples.

Results

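The genes described here mark the epithelium of the bile ducts or build its cytoskeleton. They are the simple keratins Krt7, Krt8, Krt18, Krt19 and Krt23, the adhesion molecule Epcam, the transcription factor Sox9, the secreted phosphoprotein Spp1 and the ciliary protein Pkhd1. They were chosen by name, not by their values, and all 9 were found among the 43346 gene IDs of the count tables. RNA-seq gave read counts per gene for livers of C57BL6 mice aged 3 months. The Control group had 3 libraries. The DKO group had 3 libraries from mice described as lacking β-catenin (Ctnnb1) and γ-catenin (Jup) specifically in hepatocytes. The sources used here give neither the alleles nor the driver of the deletion, nor the genotype of the Control mice beyond that name. By its description the deletion spares the duct cells, which carry most of the markers described here. The labels number the libraries but do not state that they are separate animals. The p-values below therefore reflect the spread among these libraries alone, which may be technical.

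Keratins are the intermediate filaments of epithelia, and each filament is built from pairs of a type I and a type II protein. Hepatocytes make a single pair, keratin 8 (type II) with keratin 18 (type I), whereas the cells that line the bile ducts, the cholangiocytes, also make keratins 7 and 19. In injured or cholestatic liver, cells with duct markers such as SOX9, EPCAM and osteopontin (the product of Spp1) are known to expand, and hepatocytes can take up some of these markers.

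The DKO-labelled libraries held few reads assigned to genes and differed among themselves. Control libraries held 12320487 to 15869639 such reads, and DKO replicates 1, 2 and 3 held 309731, 525037 and 1491237. Mitochondrial genes took 6.34% to 6.57% of them in Control but 6.27%, 14.4% and 62.7% in DKO replicates 1, 2 and 3, so DKO replicate 3 stood apart. Ctnnb1, the first targeted gene, had 2945, 2896 and 2650 Control reads against 0, 52 and 65 under the DKO label (edgeR's quasi-likelihood test, adjusted p = 0.171). Jup, the other, had 339, 270 and 196 Control reads against 6, 1 and 11 (adjusted p = 0.0847), so neither difference passed the test. A gene could also collect reads without being expressed. A set of 8600 protein-coding genes with at most 10 reads over the 3 Control libraries, called silent below, held 0.0878 to 0.157 reads per kb of exon in Control but 1.34, 0.968 and 2.40 in DKO replicates 1, 2 and 3. From these rates, in 10 bins of GC content, the background reads expected for each gene were computed. A second expectation was the Control mean multiplied by the median ratio of 163 abundant liver genes after background subtraction, which was 0.000246, 0.0184 and 0.00494 in DKO replicates 1, 2 and 3. DKO replicate 2 therefore held the most liver RNA relative to its background. By the sum of both expectations Ctnnb1 was not low in DKO replicates 2 and 3, with 52 reads against 59.7 and 65 against 32.8. In DKO replicate 1 it had 0 against 11. Jup had 6, 1 and 11 reads against 10.7, 14.3 and 21.8. Which part of either gene was deleted is not given in these sources, and counts over the whole gene need not show it. Background was uneven: 66.0%, 63.0% and 43.2% of silent genes had 0 reads in the 3 libraries, while the highest 1% had at least 13.6, 14.4 and 12.6 times their expectation. A single gene above its expected background is thus not shown to be expressed.

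In Control liver the 9 genes spanned a wide range of levels per length. Krt8 was the highest, at 94.3 ± 7.49 CPM per kb of exon (SD, n = 3 libraries, scaled by TMM), followed by Krt18 at 68.3 ± 17.9 and Spp1 at 47.8 ± 3.55. Krt8 and Krt18 overlapped between libraries, while every Krt18 value lay above every Spp1 value. Krt23 followed at 3.63 ± 1.97 and Sox9 at 1.23 ± 0.689, and these neighbours did not overlap either. The lowest levels were those of Epcam at 0.813 ± 0.510, Krt19 at 0.548 ± 0.774, Pkhd1 at 0.464 ± 0.0589 and Krt7 at 0.140 ± 0.0665. Values of Sox9, Epcam, Krt19 and Pkhd1 overlapped between each neighbouring pair in this order. Krt7, the duct partner of keratin 19, was below Pkhd1 in every library. The hepatocyte keratin pair thus stood far above the duct keratins in whole liver, where ducts are a small part of the tissue.

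**Figure D1:**
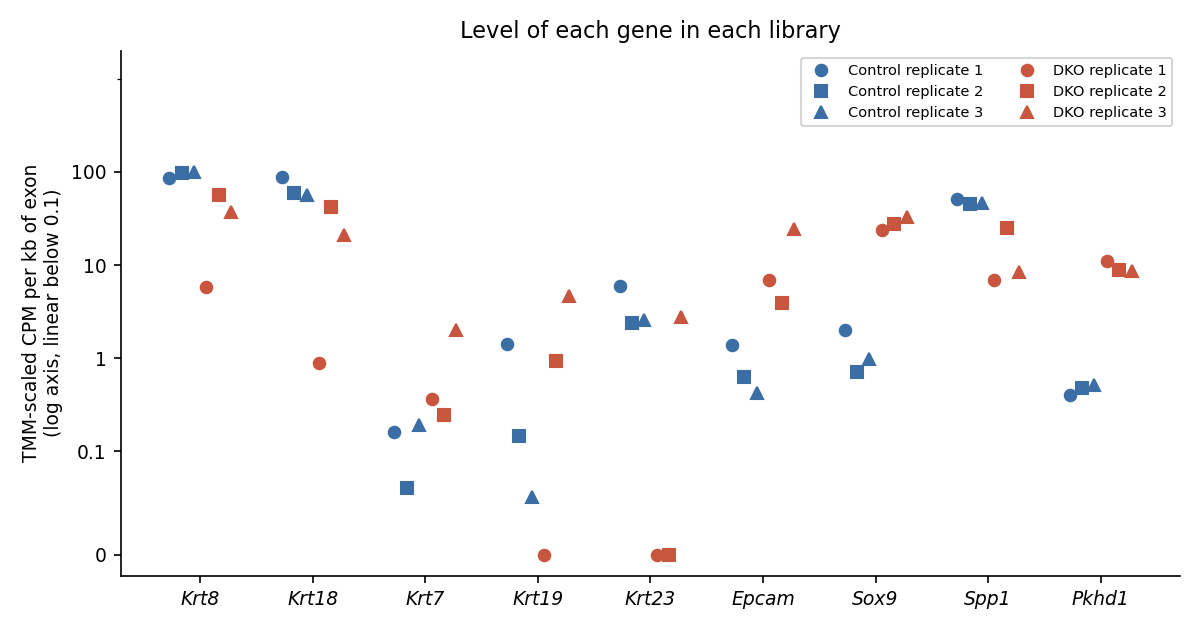
TMM-scaled CPM per kb of exon (vertical axis, logarithmic and linear below 0.1) of the 9 genes in each of the 6 libraries, with 1 point per library, blue for Control and red for DKO-labelled. Sox9 and Pkhd1 sit far above Control in all 3 DKO-labelled libraries, whereas Krt8, Krt18 and Spp1 sit below Control on this scale, though not on that of abundant liver genes, and are spread widely.

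The Control libraries differed among themselves in the duct markers. Krt19 had 35 reads in Control replicate 1 but 3 and 1 in replicates 2 and 3, so most of its Control reads came from 1 library. Krt23, a type I keratin, had 121, 41 and 39 reads. Sox9 had 109, 32 and 39 reads, and Epcam had 40, 15 and 9. As a share of gene reads, Control replicate 1 exceeded the mean of the other Control libraries 14.9-fold for Krt19, 2.79-fold for Epcam, 2.52-fold for Sox9, 2.50-fold for Krt23 and 1.62-fold for Krt18. Spp1 (1.19-fold), Krt8 (0.920-fold) and Pkhd1 (0.849-fold) did not share this excess, and Krt7 had 15, 5 and 13 reads. Of the 9 genes, 5 were more than 1.5 times higher in Control replicate 1 than in each of the other Control libraries, against 10.1% of the 13103 genes with at least 30 Control reads.

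Markers of other non-hepatocyte cells moved the same way in Control replicate 1. All 8 sinusoidal endothelial markers exceeded both other Control libraries more than 1.5-fold, with a median ratio of 1.97. The same held for 4 of 8 stellate cell markers, for 12 of 34 other bile duct genes and for 2 of 8 Kupffer cell markers, but for 0 of 10 hepatocyte markers, whose median ratio was 1.08. With a single library on one side this difference has no replicate check. In bulk tissue, more cells of a type and more RNA per cell cannot be told apart. Comparisons of Krt19, Krt23, Sox9 and Epcam with Control rest on this spread.

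**Figure D2:**
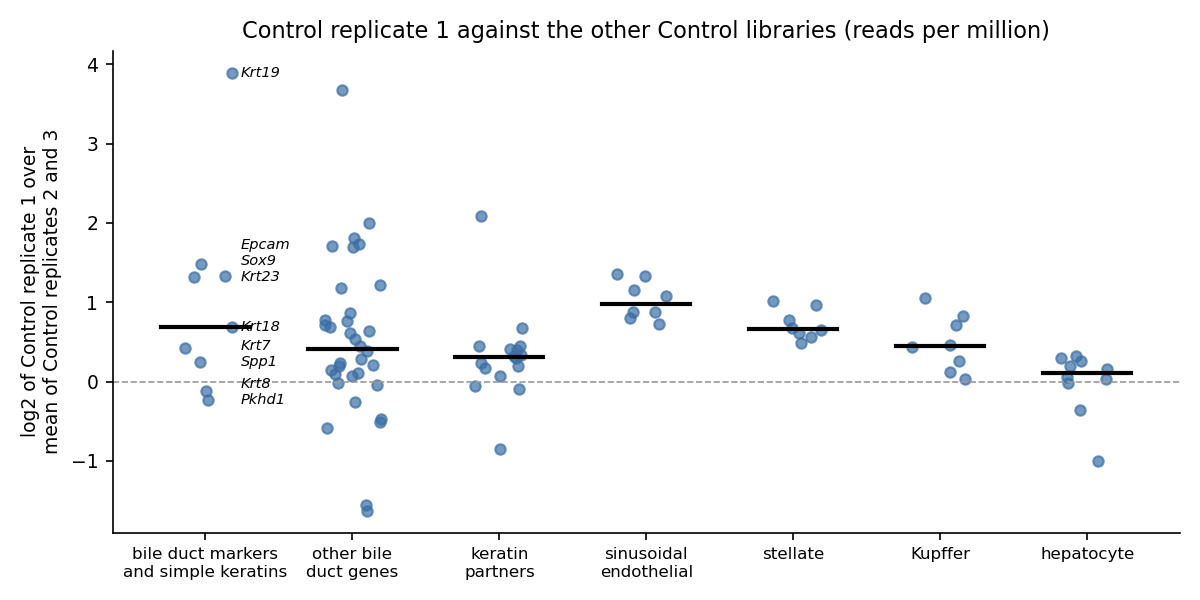
Log2 ratio of the share of gene reads in Control replicate 1 to the mean of Control replicates 2 and 3 (vertical axis) for the genes of 7 lists with at least 30 Control reads, with 1 point per gene and a bar at the median. The point of Krt19 lies highest, the endothelial markers are all above 0, and hepatocyte markers centre close to 0.

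Between the groups, 4 of the 9 genes were called higher and 1 lower in the DKO-labelled libraries when edgeR's quasi-likelihood test was run over 15561 genes with adjusted p below 0.05. Sox9, Pkhd1, Epcam and Krt7 were higher and, on the TMM scale but not on that of abundant liver genes, Spp1 was lower, while Krt8, Krt18, Krt19 and Krt23 did not pass. Among all tested genes, 31.3% were called higher and 12.8% lower, so calls in both directions were common. CPM of the groups did not overlap for the 4 higher genes and, in the lower direction, for Krt8, Krt18 and Spp1, which compares with 34.0% and 36.4% of tested genes. Krt7, Krt19 and Epcam were too low in Control to reach the count filter and were tested because of their DKO reads, so a difference upward was built into their entry. Of all 4462 genes tested on that ground, 89.3% were called higher. Of the 6 genes that passed the filter on Control alone, Sox9 and Pkhd1 were higher and Spp1 lower. In all 11099 such genes, 7.97% were called higher and 17.9% lower. The median log2 fold change was 1.80 over the 9 genes and -0.08 over all tested genes, but -1.60 over the 6 and -1.18 over the 11099 that passed on Control alone, so the sign of the first rests on how genes entered the test.

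The sign of several fold changes depended on the scale. Setting the libraries on the abundant liver genes instead of TMM raised the log2 fold change of the median gene by 4.45, and the median of all genes stood at 4.68. On that scale Krt8, Krt18, Krt23 and Spp1 turned from below to above Control, by 2.47, 1.50, 1.68 and 2.95, each below that median and none past the threshold (adjusted p = 0.164, 0.303, 0.245 and 0.102 in edgeR). Sox9, Pkhd1, Epcam and Krt7 were above Control on both scales, and Krt19 passed as higher on the second (log2 fold change 5.52, adjusted p = 0.00300 in edgeR).

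**Figure D3:**
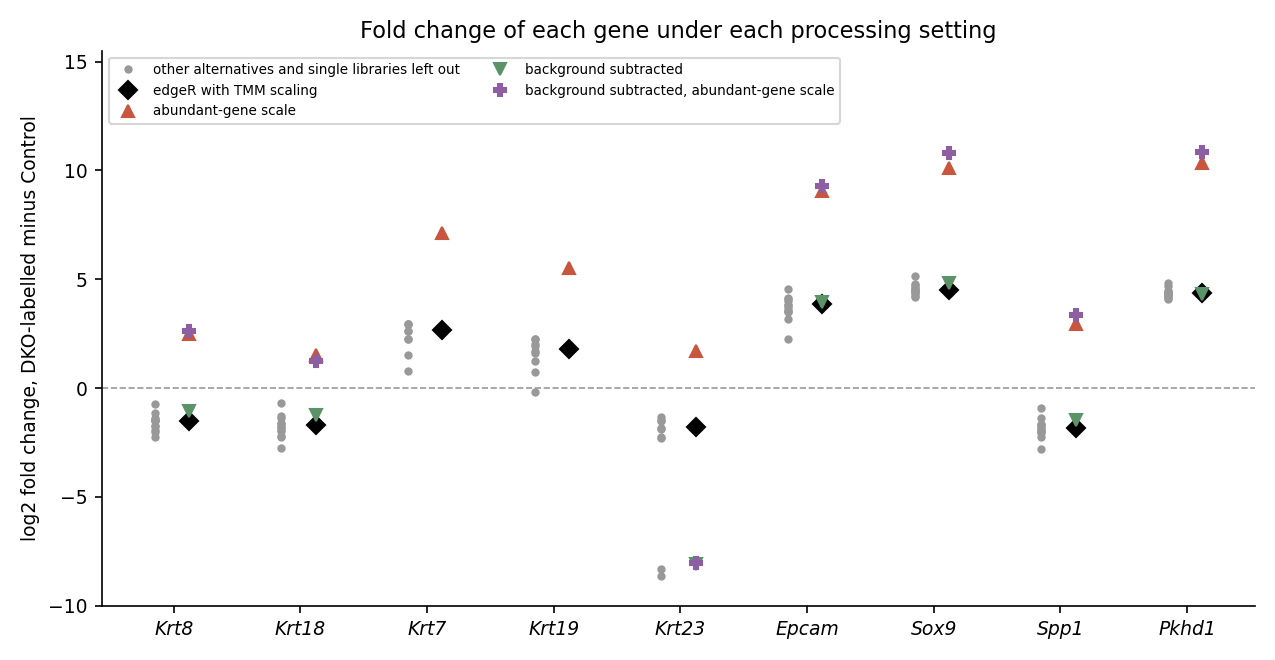
Log2 fold change of DKO-labelled over Control libraries (vertical axis) for each gene under each processing setting, with a diamond for edgeR with TMM scaling and other symbols for the alternatives. Sox9, Pkhd1 and Epcam stay above 0 throughout, and Krt8, Krt18 and Spp1 cross 0 when scaled on abundant liver genes.

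Krt8 and Krt18 are neighbouring genes at the end of the type II keratin cluster of chromosome 15, and Krt18 is the single type I gene there. Krt8 (ENSMUSG00000049382) lies at 101996698 to 102004482 on the minus strand of mm10 and Krt18 (ENSMUSG00000023043) at 102028180 to 102032027 on the plus strand. Krt7 (ENSMUSG00000023039), near the other end of the cluster at 101411043 to 101430313 on the plus strand, was nearly silent in the same livers. The promoters of these 3 keratins are shown because the genes share a cluster but not a level. Sequences are from RefSeq (build GRCm38.p6), from 250 bases before to 50 after the listed start, and the table held 7 of the 9 genes, without Krt19 and Sox9. Capitals mark matches on either strand to 4 motifs. TATAA is the core of the box that places the start of transcription. GGGCGG is a core bound by SP1 and its relatives. CCAAT is bound by the NF-Y complex. AGGTCA is a half-site of nuclear receptors. The windows are chr15:102004293-102004592 (minus strand) for Krt8, chr15:102027966-102028265 (plus strand) for Krt18 and chr15:101412153-101412452 (plus strand) for Krt7.
Krt8: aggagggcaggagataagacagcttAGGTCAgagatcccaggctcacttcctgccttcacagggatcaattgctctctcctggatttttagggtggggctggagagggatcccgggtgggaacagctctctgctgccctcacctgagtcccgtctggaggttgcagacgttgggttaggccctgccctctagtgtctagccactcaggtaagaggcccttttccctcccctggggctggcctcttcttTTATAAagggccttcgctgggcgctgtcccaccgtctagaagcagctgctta
Krt18: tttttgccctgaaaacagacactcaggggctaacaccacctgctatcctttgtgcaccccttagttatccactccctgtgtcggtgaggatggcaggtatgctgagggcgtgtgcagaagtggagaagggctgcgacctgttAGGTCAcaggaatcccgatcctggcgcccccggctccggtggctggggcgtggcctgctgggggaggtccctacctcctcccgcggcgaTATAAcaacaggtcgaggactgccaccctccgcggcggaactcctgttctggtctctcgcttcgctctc
Krt7: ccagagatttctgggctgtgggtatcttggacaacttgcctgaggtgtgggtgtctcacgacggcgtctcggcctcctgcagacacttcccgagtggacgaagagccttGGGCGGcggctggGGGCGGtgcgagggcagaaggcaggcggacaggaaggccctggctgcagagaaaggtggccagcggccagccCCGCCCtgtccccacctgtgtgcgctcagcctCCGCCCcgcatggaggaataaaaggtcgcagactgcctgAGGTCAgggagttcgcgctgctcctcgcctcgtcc
Krt8 and Krt18 each held a TATAA match and an AGGTCA match, and Krt7 held 4 GGGCGG matches and 1 AGGTCA match, but no TATAA. The forward TATAA match began 1 base before the listed start in Krt8, and 19 bases before it in Krt18. The GENCODE gene models begin 140 bases further upstream for Krt8, 36 for Krt18 and 1360 for Krt7. The Krt7 window thus lies inside its annotated gene, and the letters at its GENCODE start were not searched. In Krt8 that match overlaps its own reverse complement. None of the 3 windows held CCAAT. Of 32851 promoters of this length, 24.9% held TATAA, 35.7% GGGCGG, 37.4% CCAAT and 16.3% AGGTCA. Such matches describe letters and are not evidence of binding.

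Krt8 counts were 2207, 2071 and 1895 across Control and 9, 64 and 68 across DKO replicates 1, 2 and 3. On the TMM scale every DKO-labelled value lay below Control, at 11.5, 110 and 73.6 CPM against 168 to 197 CPM. This difference did not pass edgeR's test (log2 fold change -1.51, SE 0.88, adjusted p = 0.179). DESeq2, in which 30.7% of tested genes were lower, called it lower (adjusted p = 0.00983).

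Krt18 counts were 1675, 926 and 792 across Control and 1, 35 and 28 across the same DKO-labelled libraries. Its scaled values did not overlap between groups either, and the log2 fold change of -1.70 (SE 0.96) did not pass (edgeR, adjusted p = 0.164). Leaving out DKO replicate 1, which held a single Krt18 read, took the adjusted p in edgeR to 0.0471, and DESeq2 gave 0.0457. Reads of both keratins were thus fewest in the library with the least liver RNA. Per kb, Control libraries held 0.967, 1.64 and 1.76 Krt8 reads for each Krt18 read, and DKO replicates 2 and 3 held 1.34 and 1.78. In DKO replicate 1 the 9 Krt8 reads and 1 Krt18 read are too few for a useful ratio.

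Against what liver RNA and background together predict, both keratins had more reads in DKO replicates 2 and 3. In DKO replicate 2 the 64 Krt8 reads (exact Poisson 95% interval 49.3 to 81.7, counting error only) compared with 37.9 predicted for liver transcripts and 2.51 for background. The 35 Krt18 reads there (24.4 to 48.7) compared with 20.8 and 1.84. After background subtraction these counts were 1.62 and 1.59 times the liver expectation, where the abundant genes ran from 0.788 (10th percentile) to 1.27 (90th percentile). In DKO replicate 3 the 68 Krt8 reads (52.8 to 86.2) compared with 16.6 expected in all, and the 28 Krt18 reads (18.6 to 40.5) with 10.3. The corresponding ratios of 6.06 and 4.17 lay above the same percentiles of the abundant genes there, 0.312 and 2.90. In DKO replicate 1 the 9 Krt8 reads compared with 3.49 expected in all, and the 1 Krt18 read with 2.47. The keratin pair was thus below Control per gene read but not relative to abundant liver transcripts. With background subtracted and that scale, 7 of the 9 genes could be tested. Sox9, Pkhd1 and Epcam were called higher, against 35.4% of all tested genes. Krt23 alone lay below Control (log2 fold change -8.04, adjusted p = 0.270 in edgeR) and was not called, where 8.49% of genes were called lower. Krt8 stood at 2.64 and Krt18 at 1.24 log2 units above Control there, beside a median of 2.01 over 13322 genes. Neither passed the threshold (edgeR, adjusted p = 0.20 and 0.41).

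**Figure D4:**
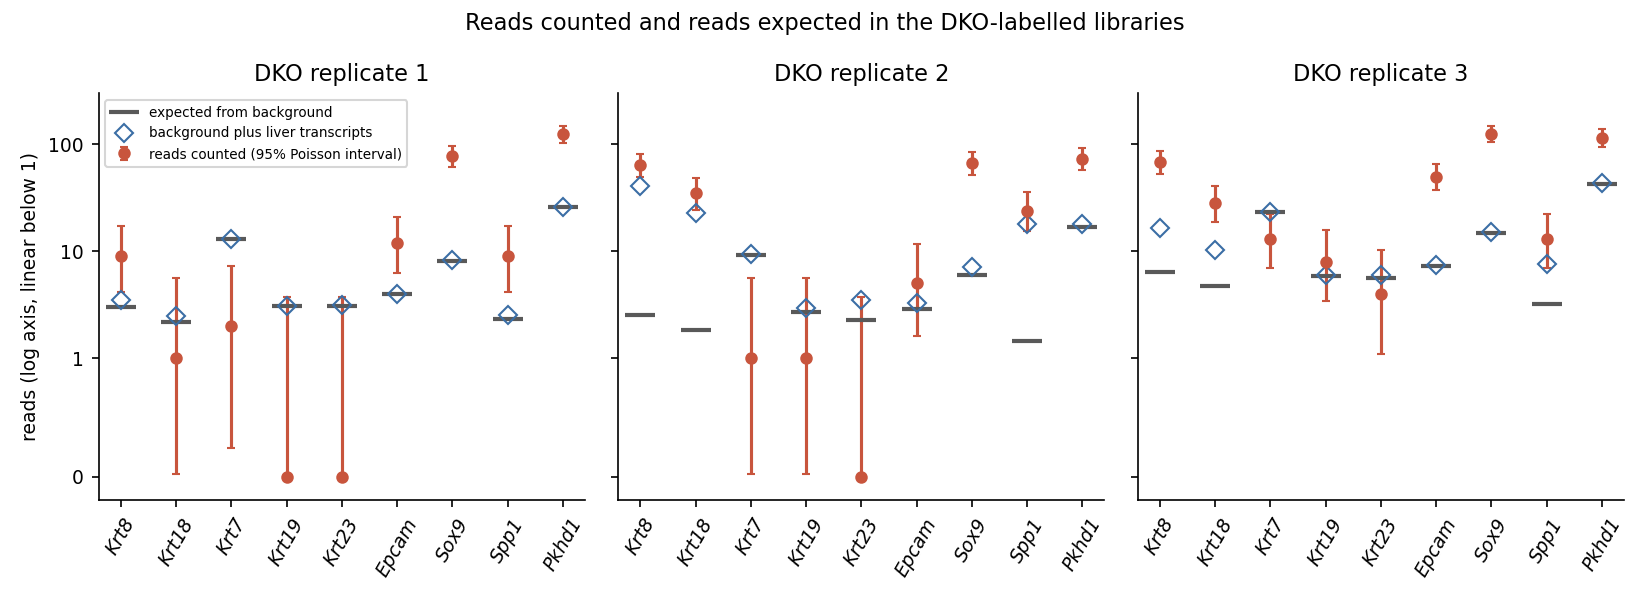
Reads counted for each gene in each DKO-labelled library (red points with exact Poisson 95% intervals), the reads expected from background (grey bars) and from background plus liver transcripts (open diamonds), on a logarithmic axis that is linear below 1. Sox9 and Pkhd1 lie above both expectations in all 3 libraries, whereas Krt7 lies below them, and Krt19 and Krt23 lie within counting error of them.

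The duct keratins gave no reads above background that could be told from counting error. Krt7 (type II) had 15, 5 and 13 Control reads but 2, 1 and 13 under the DKO label, where 12.9, 9.17 and 23.3 were expected from background alone. Its call as higher (edgeR, log2 fold change 2.69, SE 0.90, adjusted p = 0.0360) therefore stood beside counts below the expected background in every DKO-labelled library. The call was lost without DKO replicate 3 (adjusted p = 0.260), and after background subtraction the gene had too few reads to be tested. Krt7 was thus not detectable above background at this depth.

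Krt19 (ENSMUSG00000020911, chromosome 11, 100140810 to 100148665, minus strand) encodes the smallest keratin, a duct marker that lacks the usual tail. After its 35, 3 and 1 reads in Control it had 0, 1 and 8 in DKO replicates 1, 2 and 3, where 3.06, 2.69 and 5.89 were expected from background. Its log2 fold change of 1.80 (SE 1.34) did not pass (adjusted p = 0.278 in edgeR) and became -0.20 without DKO replicate 3. Krt23 (ENSMUSG00000006777, chromosome 11, 99477974 to 99493137, minus strand) had 0, 0 and 4 reads against 3.10, 2.28 and 5.66 from background, which left it at -1.77 on the log2 scale (SE 1.12, adjusted p = 0.207 in edgeR). Liver transcripts at the Control proportion would have added at most 0.239 reads of Krt19 and 1.23 of Krt23 in any of these libraries, so their low counts do not show a loss.

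Sox9 (ENSMUSG00000000567, chromosome 11, 112782224 to 112787760, plus strand) had the largest excess over background among the genes at low Control levels. SOX9 drives the formation of bile ducts and marks duct cells and a subset of periportal hepatocytes. Beside its 109, 32 and 39 Control reads stood 78, 67 and 126 in DKO replicates 1, 2 and 3, although those libraries held far fewer gene reads. Scaled levels averaged 5.10 ± 2.85 CPM for Control and 117 ± 18.6 CPM for DKO (SD, n = 3 each), with no overlap. The log2 fold change was 4.51 (SE 0.69, adjusted p = 0.000857 in edgeR), and the call held in all 15 alternatives. The fold change stayed at 4.81 after background subtraction (adjusted p = 0.0104).

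Expected background was 8.18, 6.02 and 15 reads of Sox9, so that the counts were 9.53, 11.1 and 8.42 times as high. Liver transcripts would have added at most 1.11 reads. Per kb, Sox9 had 18.9, 16.2 and 30.5 reads in the 3 libraries. Among the 8600 silent genes, 24 (0.279%) reached at least the ratios of Sox9 in all 3 libraries. Reads at this level thus also occurred at genes nearly without Control reads.

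Pkhd1 (ENSMUSG00000043760, chromosome 1, 20057779 to 20618064, minus strand) encodes fibrocystin, a protein of the primary cilium of duct and kidney tubule cells. It had 75, 75 and 71 Control reads, and 124, 73 and 115 under the DKO label. Scaled values did not overlap, at 5.72 to 7.38 CPM in Control and 124 to 158 CPM under the DKO label. The log2 fold change was 4.35 (SE 0.63, adjusted p = 0.000754 in edgeR), and 4.30 after background subtraction (adjusted p = 0.0104). Its 14310 bases of exon make it the longest of the 9, and background alone predicted 26.0, 16.8 and 42.8 reads, so the counts were 4.77, 4.34 and 2.69 times as high. Of the silent genes, 153 (1.78%) reached these ratios in all 3 libraries. The locus overlaps 4 other annotated genes, which together held 6 Control reads and 11 DKO reads. Since the strand setting is not given, reads of an antisense neighbour cannot be told from those of Pkhd1.

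Epcam (ENSMUSG00000045394, chromosome 17, 87635979 to 87651129, plus strand), the adhesion molecule used to sort duct and progenitor cells, had 40, 15 and 9 Control reads, against 12, 5 and 50 in DKO replicates 1, 2 and 3. After scaling all 3 DKO-labelled values lay above Control. Its log2 fold change was 3.86 (SE 0.92, adjusted p = 0.00763 in edgeR). Most of the reads were in DKO replicate 3, where 50 compared with 7.26 expected from background, while 12 compared with 4.01 in replicate 1 and 5 with 2.86 in replicate 2. Mitochondrial genes held 62.7% of the gene reads of replicate 3. With these genes left out, the log2 fold change of Epcam was 4.12 (edgeR, adjusted p = 0.00376). In replicate 2 the interval of the count (1.62 to 11.7) includes the expected background. The call held without DKO replicate 3 (log2 fold change 3.16, adjusted p = 0.0245 in edgeR). It was lost without Control replicate 2 or 3 (adjusted p = 0.0513 and 0.0530 in edgeR). With DKO replicate 2 alone the log2 fold change was 2.25. Of the silent genes, 119 (1.38%) reached the ratios of Epcam in all 3 libraries.

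Spp1 (ENSMUSG00000029304, chromosome 5, 104435118 to 104441050, plus strand) encodes osteopontin, which is secreted by duct cells and also by macrophages. It had 1117, 810 and 745 Control reads, against 9, 24 and 13 under the DKO label. On the TMM scale levels averaged 78.8 ± 5.84 CPM for Control and 22.3 ± 16.5 CPM for DKO (SD, n = 3 each), with no overlap. Its log2 fold change was -1.85 (SE 0.65, adjusted p = 0.0442 in edgeR). The call as lower was lost after background subtraction (adjusted p = 0.249), without DKO replicate 3 (0.0786) and without Control replicate 1, 2 or 3 (0.139, 0.111 and 0.118). The fold changes there were -1.46, -1.39, -1.70, -1.88 and -1.85, close to the one above, and the abundant-gene scale turned the sign.

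Against expectation Spp1 was not low. In DKO replicate 2 its 24 reads (exact Poisson 95% interval 15.4 to 35.7) compared with 17.8 expected from liver transcripts and background, and in DKO replicate 3 its 13 reads (6.92 to 22.2) compared with 7.61. In DKO replicate 1 the 9 reads (4.12 to 17.1) compared with 2.54. Spp1 thus differed from the duct markers Sox9 and Epcam in that liver transcripts made up most of its expected reads in DKO replicates 2 and 3. Kupffer cell and macrophage markers, another source of Spp1, had a summed level of 233 to 302 CPM in Control and 20.4 to 153 CPM under the DKO label. None of these 8 markers was at 0 over either group, and their part in the Spp1 difference was not tested.

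The other keratin genes give the local background in which the simple keratins lie. The annotation holds 53 protein-coding keratin genes in the count tables, 27 on chromosome 11 and 26 on chromosome 15. Most belong to skin and hair, and 47 were silent in Control. On chromosome 15 the 23 silent keratins held 1.13, 1.13 and 1.79 reads per kb in DKO replicates 1, 2 and 3. In the same libraries Krt8 had 4.60, 32.7 and 34.7 reads per kb, above that summed rate in each. Krt18 had 0.696, 24.4 and 19.5, below it in DKO replicate 1, where the silent Krt2 reached 11.5. Krt7 had 0.284, 0.142 and 1.84. On chromosome 11 the 24 silent keratins held 0.564, 0.867 and 3.27 reads per kb, and Krt19 had 0, 0.539 and 4.31. Krt7 and Krt19 were thus in the range of the silent keratins of their own clusters.

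**Figure D5:**
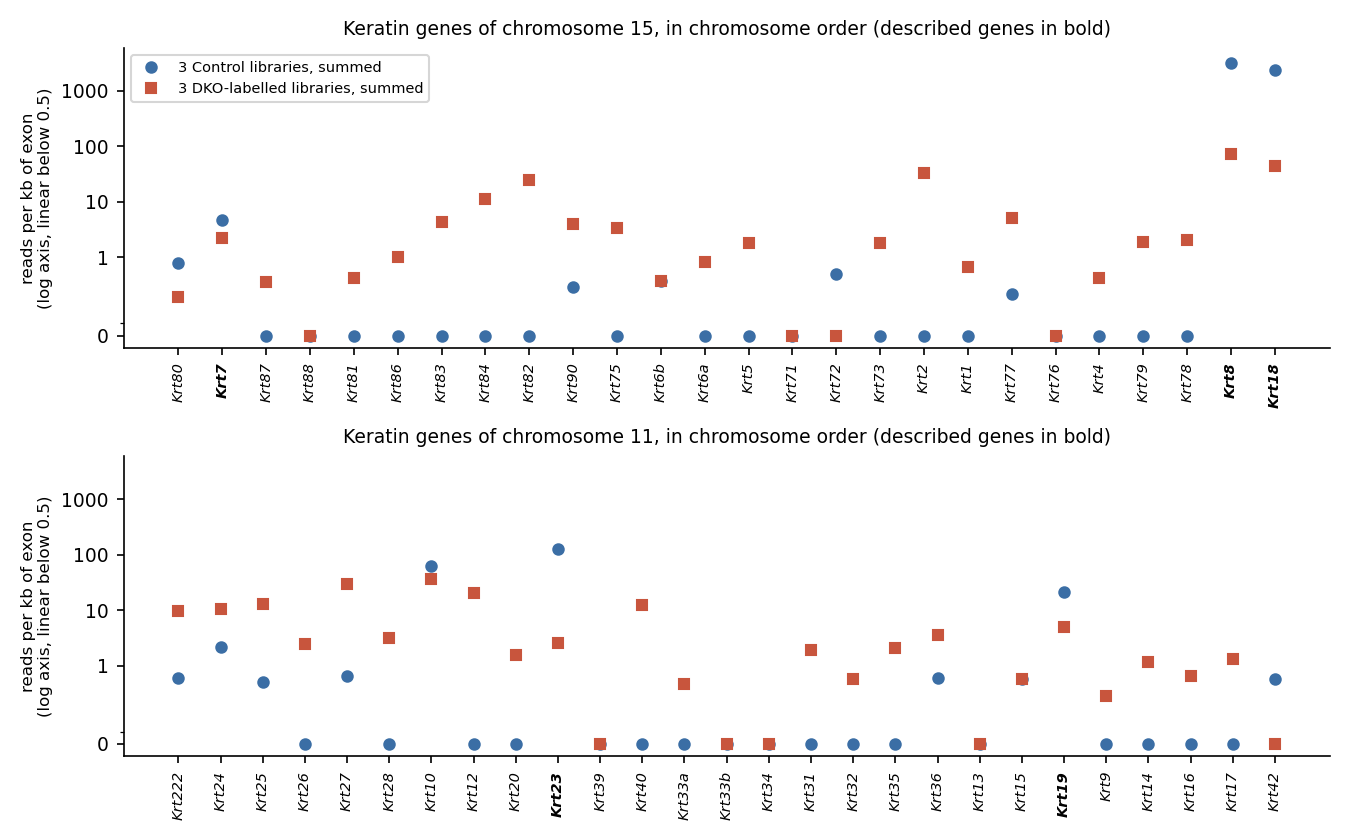
Reads per kb of exon (vertical axis, logarithmic and linear below 0.5), summed over 3 Control libraries (blue) and over 3 DKO-labelled libraries (red), for the keratin genes of chromosomes 15 and 11 in chromosome order. Krt8 and Krt18 stand above all other keratins in both groups, and Krt7, Krt19 and Krt23 fall among the silent keratins in the DKO-labelled libraries.

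Single silent keratins could still collect many reads. Krt2, a keratin of the upper epidermis, had 0 reads in every Control library and 30, 31 and 27 in the DKO-labelled ones, which is at least 431-fold higher when Control is set at 3 counts for the group. Its counts were similar in the 3 DKO-labelled libraries. Krt40, a hair keratin, had 4, 2 and 10 reads against none in Control, at least 78.4-fold higher on the same floor. Krt222 had 5, 11 and 16 reads and Krt77 had 4, 7 and 4, with 2 Control reads and 1 Control read. All 9 of the other keratins that could be tested were called higher by edgeR, of which 8 entered only through their DKO reads, against 31.3% of all tested genes and 89.3% of those that entered that way. The remaining one, Krt10, passed the filter on Control alone. The median log2 fold change of the 9 was 8.32, and 7.20 with the 4 that had no Control reads set at their bounds. Without DKO replicate 3, 4 could be tested and all 4 were called higher, against 4322 of all 15836 genes in that fit. After background subtraction 3 were tested and all 3 were called higher, against 17.3% of all tested genes. Genes nearly without Control reads enter a test through their DKO reads, so such calls were in part fixed by that entry.

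A list of 52 further bile duct genes, covering transcription factors, transporters, cilia, Notch signalling and surface proteins, was read beside the 9 genes. Of 36 that could be tested, 15 were called higher and 2 lower, with a median log2 fold change of 1.30, beside 31.3%, 12.8% and -0.08 for all tested genes. Of the 36, 11 entered through their DKO reads and 25 passed the filter on Control alone, of which 6 (24%) were higher and 2 (8%) lower, with a median of 0.24. Genes that passed in that way gave 7.97%, 17.9% and -1.18 in all. After background subtraction 11 of 32 were higher and 5 lower, against 17.3% and 20.8% of all tested genes. Over the whole list of 52 genes, 16 had more reads than expected from background in all 3 DKO-labelled libraries. Of these, 11 were among the 15 called higher, a share in part set by their choice for high DKO values.

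By adjusted p the leading genes of that list were surface molecules and a survival factor, and none is specific to ducts. Ncam1, Cdh6 and Prom1 were tested only because of their DKO reads, so their differences were in part set by that entry and by their choice. Ncam1, a neural adhesion molecule that reactive duct cells also carry, had 8, 2 and 3 Control reads and 96, 32 and 94 under the DKO label (log2 fold change 7.88, SE 0.81, adjusted p = 0.000671 in edgeR). Bcl2, an inhibitor of apoptosis, had 34, 25 and 27 Control reads and 27, 28 and 102, or 4.65 on the log2 scale (SE 0.69). Cdh6, a cadherin of kidney and fetal duct epithelium, had 0, 1 and 1 Control reads and 16, 3 and 43. Prom1, a progenitor surface marker, had 38, 15 and 5 Control reads and 60, 26 and 58, or 5.23 on the log2 scale (SE 0.79). Bcl2, which passed on Control alone, was higher in each DKO-labelled library than in any Control library after scaling. Expected background was 17.1, 12.6 and 31.4 reads for Ncam1 and 9.62, 5.53 and 14.3 for Cdh6, which Cdh6 did not exceed in DKO replicate 2. For Bcl2 it was 14.5, 10.3 and 23.7 reads, and for Prom1 11.4, 8.08 and 18.6. Of the silent genes, 182 (2.12%) reached the ratios of Bcl2 to background in all 3 libraries. For Ncam1, Cdh6 and Prom1 165 (1.92%), 382 (4.44%) and 153 (1.78%) did. Lymphocytes also make Bcl2. Their 8 markers summed to 5.61 to 8.62 CPM in Control and 43.3 to 98.5 CPM under the DKO label. Of the 8, 2 were at 0 over that group. In DKO replicates 1, 2 and 3 the 8 markers held 1.50, 1.55 and 4.03 reads per kb, beside 1.34, 0.968 and 2.40 for silent genes. Only 1 of the 8 had more reads than expected from background in all 3 libraries. The part of lymphocytes in the Bcl2 difference was not tested.

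The 2 lower genes of the list, named after their values were seen, were the water channel Aqp1 and the anion exchanger Slc4a2, both of duct secretion and also of other liver cells. On the TMM scale Aqp1 was lower, with 1793, 910 and 835 Control reads and 0, 16 and 6 under the DKO label (edgeR, log2 fold change -3.24, SE 1.06, adjusted p = 0.0331). Slc4a2 had 522, 444 and 343 Control reads and 9, 7 and 8 (log2 fold change -1.86, SE 0.57, adjusted p = 0.0252 in edgeR), with counts below the 13.7, 12.1 and 26.4 expected from background. Both calls were lost without Control replicate 1, 2 or 3 and on the abundant-gene scale. Aqp1 is also abundant in endothelium. The 8 endothelial markers summed to 258 to 463 CPM in Control and 239 to 331 CPM under the DKO label, with none at 0 over either group, and their part in the Aqp1 difference was not tested.

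Another list, called partners here, held plakins, plakophilins, other intermediate filament proteins and genes listed as binding partners of keratins 8 and 18. Of 20 listed partners 16 were tested, all passing on Control alone, and 2 (12.5%) were higher and 1 (6.25%) lower, beside 7.97% and 17.9% of all such genes. Their median log2 fold change was -0.13. On the abundant-gene scale 13 of the 16 were called higher, where 9718 of all 15561 tested genes were. Tchp, the keratin-binding protein trichoplein of centrioles and desmosomes, rose after scaling (log2 fold change 3.76, SE 0.60, adjusted p = 0.000947 in edgeR). It had 60, 50 and 32 Control reads and 35, 44 and 46 under the DKO label, where background predicted 11.3, 9.47 and 24.2. Of the silent genes, 197 (2.29%) reached its ratios to background in all 3 libraries. Nlk, a kinase of the Wnt pathway, also rose after scaling (log2 fold change 2.72, SE 0.59, adjusted p = 0.00437 in edgeR). It had 203, 157 and 129 Control reads and 96, 63 and 50 under the DKO label, where background predicted 8.64, 6.13 and 14.1. For Nlk 37 silent genes (0.430%) reached such ratios. Ywhae, a 14-3-3 protein that binds phosphorylated keratin 18, fell on the TMM scale from 3064, 2517 and 1942 reads to 1, 25 and 29 (log2 fold change -3.14, SE 1.06, adjusted p = 0.0378 in edgeR). Its call was lost without Control replicate 1, 2 or 3 and on the abundant-gene scale. Des, the muscle and stellate cell filament desmin, had 89, 46 and 46 reads in Control and 51, 6 and 6, with an adjusted p of 0.0581.

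Across the 6 libraries the profiles of Krt8 and Krt18 were compared with those of other genes. Among 3138 protein-coding genes with at least 50 CPM in Control, the profiles nearest to Krt8 were those of the ribosomal protein gene Rps15, the mitochondrial ribosomal protein gene Mrps21 and the kinase Mtor, with root mean square differences of 0.104, 0.104 and 0.116 on the log2 scale. Those nearest to Krt18 were Fam213a, Rtraf and Abca1, at 0.225, 0.229 and 0.244. Krt18, the partner of Krt8, ranked 781 in nearness to it, at 0.802. That distance includes DKO replicate 1, where 9 Krt8 reads and 1 Krt18 read are too few to compare the pair. In DKO replicates 2 and 3 the ratio of Krt8 to Krt18 reads per kb was 1.34 and 1.78, beside 0.967, 1.64 and 1.76 in Control. The rank therefore does not show that the pair varied apart. The 6 points share depth and background, and these distances are descriptions.

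Between the groups, all 10 hepatocyte markers were lower in every DKO-labelled library than in any Control library on the TMM scale. The same held for 36.4% of tested genes. By edgeR 0 of the 10 were called in either direction, where 17.9% of genes passing on Control alone were called lower. The 10 hepatocyte markers summed to 125391 to 134513 CPM in Control and to 673, 41514 and 7297 CPM in DKO replicates 1, 2 and 3, and none of the 10 was at 0 over the DKO-labelled group. Stellate cell markers summed to 284 to 447 CPM in Control and 165 to 375 CPM in the DKO-labelled libraries. The level of hepatocyte RNA, the background and the label cannot be told apart in these groups.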

How the data were processed

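Read counts per gene from 6 liver libraries were deposited by the authors as raw counts, 1 table per library. Per the submitters' processing notes the tools were STAR and HTSeq and the build mm10. The sources used here do not give versions, strand setting or annotation release. The 5 rows that name no gene held 65.1% to 66.7% of reads in Control and 95.3% to 97.3% in DKO, and were dropped before scaling and testing. HTSeq leaves out reads that align to several places, which can affect keratins with pseudogene copies. Gene names matched 42462 of 43346 IDs, with lengths, GC content and positions from GENCODE M21.

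The test was edgeR 4.0.16 (quasi-likelihood, robust, TMM, filterByExpr by group, two-sided, Benjamini-Hochberg over all tested genes) in R 4.3.3, without covariates. It was checked on simulated data drawn from the Control profile and the spread of Control libraries, without background reads. That check therefore does not show how the test behaves on the DKO-labelled libraries. CPM are scaled by TMM. Groups and replicate numbers followed the titles. Alternatives were DESeq2 1.42.0, other scalings and filters, background subtraction, a block for replicate number and the omission of single libraries. Those with background subtraction on the abundant-gene scale and with DKO replicate 2 alone were chosen after seeing the data. The genes, lists and tests were chosen with earlier results of these data known. Further named genes are, from each list, the 4 with the smallest adjusted p, and the 3 nearest profiles (log2 of CPM plus 0.5) to the 2 genes with the most Control reads per kb. Intervals cover counting error only, and reads carry no molecular identifiers. Eppk1 was not analysed here.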

Additional observations from a re-analysis of the deposited data

How the results depend on the processing

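Of the 9 genes, Sox9 and Pkhd1 kept direction and call in all 15 alternatives. Scaling on abundant genes turned Krt8 to 2.47, and to 2.64 when background was also subtracted, Krt18 to 1.50 and 1.24, Spp1 to 2.95 and 3.38, and Krt23 to 1.68 on the first of these. Without DKO replicate 3 Krt19 turned to -0.20, and its fits without 1 library ran from there to 2.24. The causes were not tested.

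Counts of calls, higher and then lower, were 4871 and 1992 for all genes, 4 and 1 for the 9 genes, 15 and 2 for other bile duct genes, 9 and 0 for other keratins and 2 and 1 for keratin partners. On the abundant-gene scale they were 9718 and 85 for all genes, with 0 lower of the 9, 27 and 0 for duct genes, and 13 and 0 for partners. With no count filter they were 11477 and 4650 for all genes, with 3 lower of the 9, 8 lower duct genes, 29 higher keratins, and 5 and 2 for partners. With background subtracted, 2301 of all genes were higher, 0 of the 9 lower, 5 duct genes lower, 3 keratins higher and 2 partners lower. With background subtracted on the abundant-gene scale, 1132 of all genes and 0 of the 9 were lower, and 3 keratins and 4 partners were higher. DESeq2 gave 4776 lower genes in all, 3 of the 9 and 6 duct genes, and 4 and 2 partners. Its size factors in edgeR gave 3577 lower genes in all, 4 lower duct genes and 2 lower partners. Without mitochondrial genes 4 partners were higher. With DKO replicate 2 alone, 4374 of all genes were lower, the 9 gave 2 and 2, and 8 duct genes were lower. Keratins then gave 3 higher, and partners 7 and 3.

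Leaving out 1 library gave 4130 to 5624 higher and 567 to 4492 lower genes. The 9 genes gave 2 to 4 and 0 to 2, duct genes 13 to 18 and 0 to 7, keratins 4 to 10 higher, and partners 2 to 6 and 0 to 2. Groups with 1 library assume that it varies like the others.

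The replicate numbers did not pair the libraries, with correlations of deviations of 0.12, 0.08 and -0.02 for numbers 1, 2 and 3. With the replicate number as a block, 4143 genes were higher and 2179 lower, 3 and 0 of the 9, and 1 duct gene was lower. DKO replicate 1, with 309731 gene reads, limits what can be seen of any transcript at a low Control level.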
